A study of Mus musculus with 38 samples.

Results

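The comparison described here set the hepatic response to propiconazole against the hepatic response to phenobarbital after 4 days of feeding. For every gene, the difference of changes was the change of propiconazole livers from their own controls minus the change of phenobarbital livers from theirs. It rested on 16 of the 38 arrays of the study: 3 of propiconazole livers, 3 of conazole controls, 5 of phenobarbital livers and 5 of phenobarbital controls. All animals were male CD-1 mice, an outbred stock, aged 6 to 8 weeks. Propiconazole livers came from mice fed 2500 ppm, an average intake of 349.6 ± 46.7 mg/kg/day, and conazole controls from mice on control feed. Phenobarbital livers came from mice fed 850 ppm, an average intake of 97.2 ± 5.9 mg/kg/day, and phenobarbital controls from a separate set on control feed. The doses were not matched. Triadimefon groups and the day 30 groups entered the estimate of each gene's spread, and the day 30 groups one later comparison.

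Propiconazole is a triazole, an agricultural fungicide that blocks the fungal sterol 14-demethylase, a cytochrome P450. Phenobarbital is a barbiturate and the reference activator in rodent liver of the nuclear receptor CAR, which, with the related receptor PXR, switches on genes of drug metabolism. Their best known targets are cytochromes P450 of the CYP2B, CYP2C and CYP3A families, together with conjugating enzymes and transporters. Cytochromes P450 carry heme, whose synthesis in liver is set by the enzyme ALAS1.

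Each array gave 1 intensity per probe set, and a level below is log2(intensity + 16) after quantile normalization, so that the lowest possible level is 4. A change is a difference between 2 group means of these levels. For dim genes it is smaller than the change in signal. Levels under 6.15 were taken as background. A gene was called when limma's two-sided test gave a Benjamini-Hochberg adjusted p under 0.05 over all 17729 genes tested. The error after a change or a difference of changes is its standard error, and after a level it is the SD. Standard errors, intervals and, except with array weights, p-values rest on 1 spread per gene, taken as equal in all groups. The propiconazole arrays varied more than the others, so standard errors and intervals that involve them can be too small. All 9 measured hepatocyte markers were above background, and their summed intensity was 77160 to 84310 in propiconazole livers and 82070 to 82590 in conazole controls. The sums were 79860 to 83720 in phenobarbital livers and 82710 to 84360 in phenobarbital controls. Hepatocyte transcripts were thus bright on every array. Quantile normalization gives every array the same distribution of values, which limits how far sums of such bright genes can differ. The sums also cannot show that other tissue was absent: the pancreas gene Cpa1 was at 12.37 on phenobarbital control replicate 1.

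Propiconazole replicate 2 stood apart. Its 3′ Gapdh probe set read 6.40 above its 5′ one on the log2 scale, where the remaining 15 arrays had -0.35 to 0.22. Its median deposited intensity was 12.5, against 19.2 to 29.5 on those 15. Across genes, the mean correlation of a propiconazole array with the others of its group was 0.833 to 0.881, whereas in the other 3 groups it was 0.957 or more. The Actb 3′ excess moved with the experiment, at 0.63 to 1.85 in propiconazole livers and 0.88 to 1.37 in conazole controls, against 0.33 to 0.36 in phenobarbital livers and 0.29 to 0.40 in phenobarbital controls. Its part in the results was not tested. The conazole controls and the phenobarbital controls differed for 4767 genes (26.9% of those tested), and the experiments cannot be told apart from batches of arrays.

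The compounds' changes differed for 325 of 17729 genes (1.83%). The difference was positive for 52.9% of them (0.97% of the genes tested), among them the heme enzyme gene Alas1 and the kinase gene Sgk1, and negative for the others (0.863% of the genes tested), among them the coactivator gene Ppargc1b. At an unadjusted p under 0.05 there were 3166 genes. Without propiconazole replicate 2 the count was 178 (1%), with 69 positive (0.389%) and 109 negative (0.615%), and 112 genes (0.632%) were called in the same direction both ways, 47 positive and 65 negative. All 213 genes that lost their call kept their sign. The number of calls depended on which array was left out: it was 1845 without propiconazole replicate 3, 1630 without propiconazole replicate 1, 112 without conazole control replicate 1 and 121 without conazole control replicate 2. It was 159 and 167 without phenobarbital replicates 4 and 5, 187 without phenobarbital control replicate 1, and 212 and 215 without phenobarbital control replicate 2 and phenobarbital replicate 3.

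A fit of only the 16 day 4 arrays called 17 genes and a fit with array weights 8. In the 16 arrays Sgk1 (adjusted p = 0.0939) and Ppargc1b (adjusted p = 0.0604) lost their calls and Alas1 kept its own (adjusted p = 0.000669). With array weights Alas1 (adjusted p = 0.148) and Sgk1 (adjusted p = 0.248) lost theirs and Ppargc1b kept its own (adjusted p = 0.0232). Of the 15 largest differences in each direction described below, Alas1 alone kept its call in the 16 arrays. With array weights only Ppargc1b and Zmynd8 kept theirs. Of the other called list members, Ddit3 alone kept its call in the 16 arrays, and none did with array weights.

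The split between directions depended on scaling. On values as deposited, where the median difference over all genes moved by more than 0.1 to -0.18, against 0.03 after quantile normalization, 13 genes were positive and 419 negative (3.01% positive). Of the 15 largest positive differences described below, only Alas1 and Sgk1 kept their calls on values as deposited. After median centring 33 were positive (18.2% of those called), against 52.9% after quantile normalization. The genes nearest the threshold were Wdr77 (a difference of 0.54, adjusted p = 0.0498) inside it and Pofut2 (0.51, adjusted p = 0.0504) outside it.

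With all arrays weighted alike, more genes were called in propiconazole livers than in phenobarbital livers. Against their own controls 2463 genes changed (13.9%) in propiconazole livers, 1305 higher (7.36%) and 1158 lower (6.53%), whereas phenobarbital livers had 120 changed genes (0.677%), 94 higher (0.53%) and 26 lower (0.147%). Without propiconazole replicate 2, 1664 genes changed under propiconazole (9.39%), 794 higher (4.48%) and 870 lower (4.91%). Phenobarbital, whose own arrays were then the same, had 247 (1.39%), 174 higher (0.981%) and 73 lower (0.412%). Leaving the array out changed both the normalization and each gene's spread, which was estimated jointly over the groups. Their parts in this count were not tested. With array weights the order turned, with 98 genes called under propiconazole (0.553%) and 829 under phenobarbital (4.68%). The SD over all genes of the propiconazole changes was 0.507, and that of the phenobarbital changes was 0.270. Across 17729 genes, which are not independent, the changes under the compounds correlated at r = 0.27, and at r = 0.32 without replicate 2. Among the 325 genes, which share their arrays with each single comparison, the median size of the change was 0.870 under propiconazole and 0.137 under phenobarbital, against 0.266 and 0.115 over all genes. The plot of the change under each compound shows these genes spread along the propiconazole axis.

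**Figure D1:**
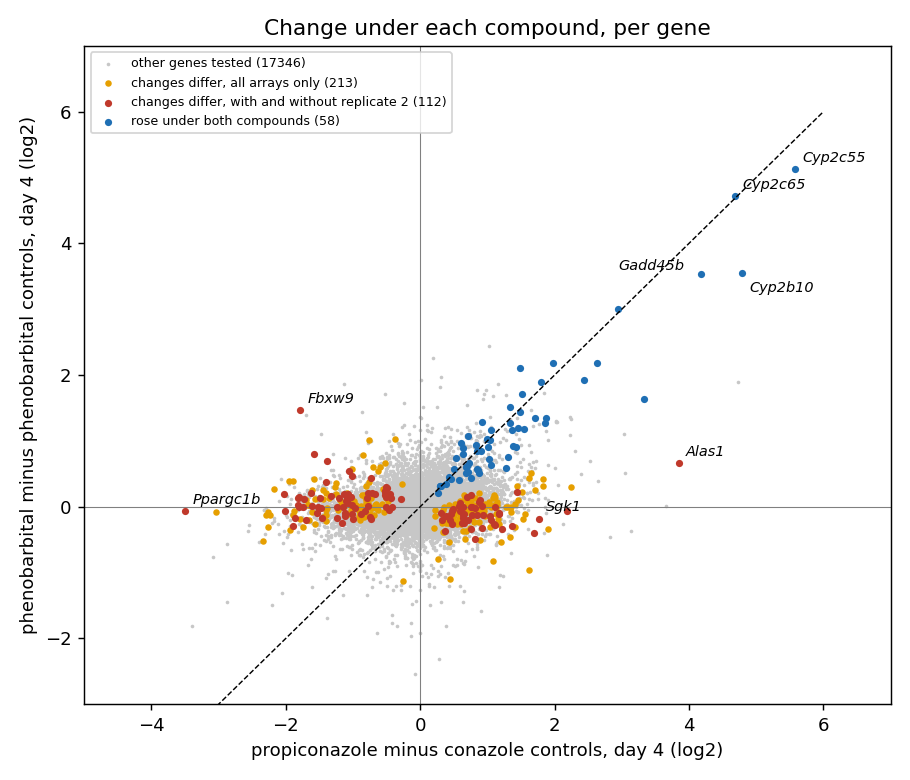
Change of each of 17729 genes under propiconazole (horizontal axis, log2) and under phenobarbital (vertical axis, log2) on day 4, each against its own controls, with equal changes on the dashed line. The 325 genes whose changes differed (orange and red) lie mostly near a phenobarbital change of 0, and the 58 genes that rose under both compounds (blue) lie near the dashed line.

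Some of the largest rises occurred under both compounds, and the genes described next were chosen for a call under both. Cyp2c55, a cytochrome P450 of the CYP2C family, had the largest change of all genes under each compound. Its levels were 12.87, 12.93 and 12.14 in propiconazole livers, against 6.55, 7.23 and 7.44 in conazole controls. In phenobarbital livers it had 12.40, 12.39, 12.68, 12.29 and 12.45, against 6.98, 7.86, 7.56, 7.03 and 7.16 in phenobarbital controls. All treated arrays were above all control arrays. It rose by 5.57 ± 0.32 (47.7-fold, adjusted p = 2.19e-13) under propiconazole and by 5.13 ± 0.25 (34.9-fold, adjusted p = 1.64e-15) under phenobarbital, and the difference of changes was 0.45 with a 95% interval of -0.37 to 1.27 (adjusted p = 0.601).

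Cyp2b10, the classical CAR target, had levels of 13.05, 13.11 and 12.86 in propiconazole livers, against 8.97, 7.97 and 7.69 in conazole controls. In phenobarbital livers it had 12.79, 12.77, 12.86, 12.77 and 12.74, against 9.20, 9.07, 9.51, 8.83 and 9.53 in phenobarbital controls. The treated groups reached nearly the same level, and the conazole controls averaged 1.02 below the phenobarbital controls (adjusted p = 0.0572). The rise was 4.80 ± 0.45 under propiconazole and 3.56 ± 0.35 under phenobarbital, a difference of 1.24 with a 95% interval of 0.09 to 2.39 that did not pass adjustment (adjusted p = 0.243). Its other probe sets, both above background on some day 4 array, had larger differences of 1.52 and 2.85.

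Cyp2c65, another CYP2C enzyme, was below background on every control array and was at least 6.15-fold higher in propiconazole livers than in conazole controls and at least 6.08-fold higher in phenobarbital livers than in phenobarbital controls. Gadd45b, a stress-inducible regulator of growth and a known CAR-responsive gene, was also below background on every control array. It was at least 4.07-fold higher under propiconazole and at least 3.15-fold higher under phenobarbital. For both genes the size of the difference of changes was not measured, since both changes are bounds. Cyp2c37 rose by 2.63 and by 2.18, with a difference of 0.45 (-0.78 to 1.68, adjusted p = 0.749). Gm10419, a predicted gene below background on every control array, was at least 2.12-fold higher under propiconazole (above background on 2 of 3 arrays) and at least 1.86-fold higher under phenobarbital (3 of 5 arrays).

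In all, 58 genes rose under both compounds, 61.7% of the 94 that rose under phenobarbital and 4.44% of the 1305 that rose under propiconazole. Over all genes tested 7.36% rose under propiconazole and 0.53% under phenobarbital. The difference of changes was called for 0 of these 58 genes by limma with all arrays, against 1.83% of all genes tested. At that share 0 of 58 does not set these genes apart. The fitted median of their differences was 0.07, with a range of -0.62 to 1.69. Over the 41 of these genes above background on at least 1 array of each group the median was 0.08. At the upper end of the range Gstt3, a glutathione S-transferase, rose by 3.32 under propiconazole and by 1.63 under phenobarbital, with an interval of 0.50 to 2.88 (adjusted p = 0.12). Its mean levels were 10.90 in propiconazole livers and 10.86 in phenobarbital livers. The conazole controls of Gstt3 were lower than the phenobarbital controls by a called -1.65 (adjusted p = 0.00317). The propiconazole rise was the larger for 36 of the 58 and the phenobarbital rise for 22. Without propiconazole replicate 2, 46 of the 58 still rose under both. Another 7 genes fell under both, and 0 were called in opposite directions.

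The counts of called list members below stand beside shares over all genes of 7.36% higher and 6.53% lower under propiconazole, 0.53% higher and 0.147% lower under phenobarbital, and 0.97% positive and 0.863% negative for the difference. Among 20 measured CYP2B, CYP2C and CYP3A enzymes, 8 rose under propiconazole, 6 rose under phenobarbital, and the difference was called for 0. The list's median difference was 0.06, against 0.03 over all genes. Cyp2c54 rose by 1.49 and by 1.44, and Cyp2c50 by 0.85 under each compound. Cyp3a44 rose by 1.03 under propiconazole, while its phenobarbital change was 0.07, and the difference of 0.96 did not pass the test (adjusted p = 0.099). Among 15 other genes known to respond to CAR and PXR, 9 rose and 1 fell under propiconazole, 4 rose under phenobarbital, and the difference was called for 1, Alas1. The exporter gene Abcc3 rose by 0.83 and by 0.94, and the carboxylesterase gene Ces2a by 1.004 and by 0.91. The receptor gene Nr1i3, which encodes CAR itself, fell by 2.20 under propiconazole with all arrays, but by 0.66 (adjusted p = 0.0513) without replicate 2.

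Of 20 glutathione S-transferases, which conjugate glutathione to reactive compounds, 5 rose and 2 fell under propiconazole (4 and 0 without replicate 2) and 5 rose under phenobarbital. Gstm2 rose by 1.49 and by 2.11, and Gstm3 by 1.51 and by 1.71. The difference was called for 1 of the 20, Gstt2 (-1.17 ± 0.32, adjusted p = 0.0494), whose own change passed the test under neither compound and whose call was lost without replicate 2 (-0.76, adjusted p = 0.201). The list of UDP-glucuronosyltransferases and sulfotransferases, which attach glucuronic acid or sulfate, had 18 measured members. Under propiconazole 6 rose and 1 fell, under phenobarbital 4 rose, and 0 had a called difference by limma.

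Alas1, which encodes the first enzyme of heme synthesis, had the largest positive difference among genes called both with and without replicate 2. Its levels were 12.03, 11.64 and 12.17 in propiconazole livers, against 8.31, 8.15 and 7.83 in conazole controls. In phenobarbital livers they were 10.46, 11.21, 10.45, 10.36 and 11.12, against 10.27, 9.94, 10.31, 10.13 and 9.61 in phenobarbital controls. Both treated groups stood apart from their controls, but the conazole controls were also lower than the phenobarbital controls by a called -1.96 (adjusted p = 0.00032). The propiconazole change was 3.85 ± 0.43 (14.4-fold), the phenobarbital change was 0.67 ± 0.34 (adjusted p = 0.535), and the difference was 3.19 ± 0.55 (adjusted p = 0.00514). Without replicate 2 the difference was 3.33 (adjusted p = 0.00594). The level in propiconazole livers exceeded that in phenobarbital livers by less than the difference of changes, since the gap between the controls ran the other way. Among 11 measured genes of heme synthesis and breakdown, Alas1 was the 1 whose difference was called and the 1 that rose under propiconazole. Fech, which inserts iron into the porphyrin ring, had a difference of -0.0049 (95% interval -0.26 to 0.25), and Hmox1, the inducible heme oxygenase, one of 0.09 (-0.70 to 0.88).

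**Figure D2:**
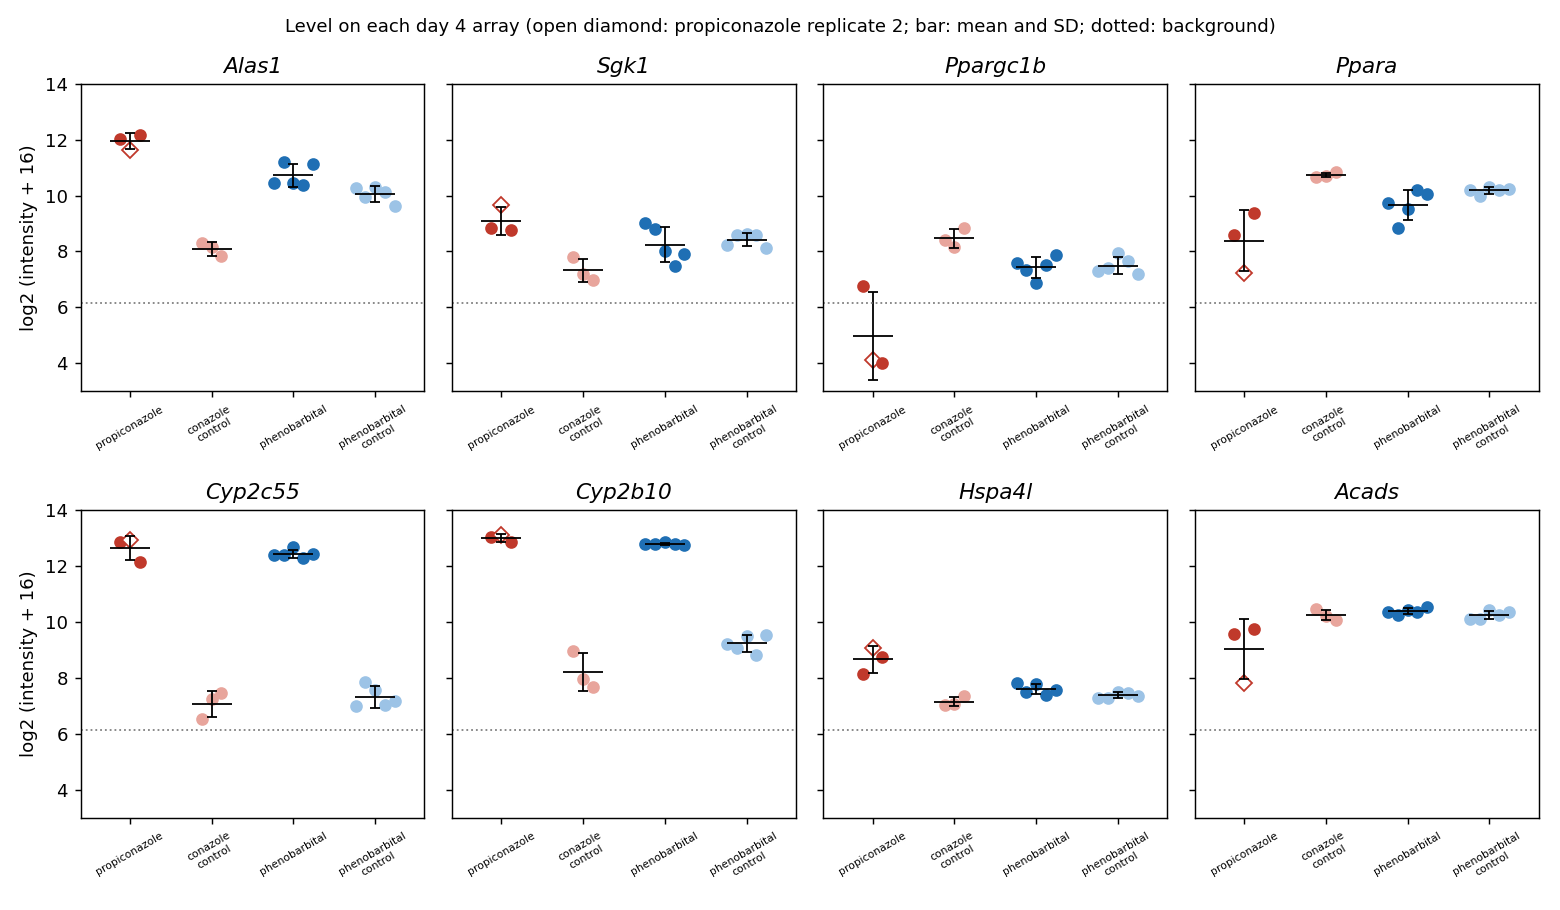
Level, log2(intensity + 16), of 8 genes on each day 4 array in the 4 groups, with bars for the mean and SD, open diamonds for propiconazole replicate 2 and a dotted line at background (6.15). Alas1, Cyp2c55 and Cyp2b10 are higher on all propiconazole arrays than on all conazole control arrays, and Ppargc1b is lower on all of them.

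Sgk1, a kinase induced by serum and glucocorticoids, had levels of 8.83, 9.67 and 8.77 in propiconazole livers, against 7.79, 7.21 and 6.97 in conazole controls. Phenobarbital livers had 9.001, 8.80, 8.03, 7.50 and 7.91, against 8.22, 8.59, 8.64, 8.57 and 8.11 in phenobarbital controls. The conazole groups did not overlap and the phenobarbital groups did. The difference was 1.95 ± 0.39 (adjusted p = 0.0138), and 1.66 (adjusted p = 0.0391) without replicate 2. Tox2, an HMG-box nuclear protein, followed with a difference of 1.38 ± 0.31 (adjusted p = 0.0212), and its other probe set was not above background on any day 4 array.

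Wdr44, a binding partner of the vesicle GTPase Rab11, had a difference of 1.26 ± 0.24. Ripor3 was below background in both phenobarbital groups and had a fitted difference of 1.28 ± 0.27. Kcnk13, a potassium channel below background on every conazole control array, was at least 1.49-fold higher in propiconazole livers than in conazole controls. Ang4, a secreted ribonuclease of the angiogenin family that was below background on every phenobarbital array, had a fitted difference of 1.09 ± 0.23. The remaining 8 of the 15 largest positive differences lay between 0.77 and 0.97. They included Golim4 (0.97), Golga5 (0.80) and Golph3 (0.77), which encode proteins of the Golgi apparatus. Golph3 had this direction in 2 of 4 probe sets, all above background, and the other probe set of Golim4 was not above background. They also included Ncbp1 (0.91), a subunit of the nuclear cap-binding complex, Utp18 (0.89), a factor of ribosomal RNA processing, and Lyrm4 (0.89), which takes part in iron-sulfur cluster assembly. Zbtb21 (0.80), a zinc finger protein, and Hikeshi (0.79), which carries Hsp70 into the nucleus, completed them. With the median of all probe sets Golph3, Golim4, Wdr44, Ripor3, Kcnk13, Ang4 and Zbtb21 lost their calls. All 15 rose under propiconazole, and their phenobarbital changes, -0.34 to 0.67, were all uncalled. For 8 of the 15 the conazole controls were called lower than the phenobarbital controls, and for 1, Tox2, higher.

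Ppargc1b, a coactivator of genes of mitochondria and fat metabolism, had the most negative difference. Its levels were 6.78, 4.13 and 4.00 in propiconazole livers, against 8.41, 8.16 and 8.84 in conazole controls. In phenobarbital livers it had 7.57, 7.32, 6.86, 7.51 and 7.88, against 7.29, 7.41, 7.93, 7.66 and 7.19 in phenobarbital controls. Only 1 of 3 propiconazole arrays measured it above background, and the phenobarbital groups overlapped. The difference was -3.43 ± 0.54 (adjusted p = 0.00204), and -3.02 (adjusted p = 0.00754) without replicate 2.

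Fbxw9, an F-box protein, had levels of 8.74, 6.47 and 4.00 in propiconazole livers, against 8.35, 8.09 and 8.11 in conazole controls. In phenobarbital livers it had 8.46, 8.20, 7.97, 8.39 and 8.61, against 7.05, 6.92, 6.68, 7.41 and 6.25 in phenobarbital controls. The propiconazole arrays straddled their controls, and all phenobarbital arrays were above theirs. The difference was -3.24 ± 0.73 (adjusted p = 0.0213). The SD of Fbxw9 was 2.37 in propiconazole livers and 0.14 to 0.43 in the other groups, so this error, from a shared spread, can be too small. Its other probe set, above background on some day 4 array, had -0.21. Zmynd8, a reader of chromatin marks, had a difference of -2.23 ± 0.49 (adjusted p = 0.0196). It was above background on 1 of 3 propiconazole arrays, at 6.78, the other levels being 5.72 and 4.42, against 7.39, 7.68 and 7.94 in conazole controls. The other Zmynd8 probe sets, all above background on some day 4 array, had differences of -0.20, -0.33, -0.26 and -0.42. With the median of all probe sets Fbxw9 and Zmynd8 lost their calls.

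Of the 15 most negative differences, 6 were of genes below background on every propiconazole array, so that their folds against conazole controls are bounds. Fzd6, a Wnt receptor, was at least 1.77-fold lower, and Drg2, a GTP-binding protein, at least 1.23-fold lower. Plcb3, a phospholipase C, was at least 1.06-fold lower. Angel1 was at least 1.33-fold lower and Pth1r, the receptor of parathyroid hormone, at least 1.32-fold lower. Trappc9, a vesicle tethering factor, was at least 1.58-fold lower. The other probe sets of Trappc9 were not above background on any day 4 array. Another Fzd6 probe set, above background on some day 4 array, had a difference of -0.40, and the last, not above background, had 0.06.

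The receptor gene Notch1 was also among the 15. It had levels of 7.29, 4.39 and 7.24 in propiconazole livers, against 8.21, 7.67 and 8.22 in conazole controls, and the lowest was replicate 2. Its difference was -1.84 ± 0.48 (adjusted p = 0.0418), and -0.88 (adjusted p = 0.0411) without replicate 2. Hes1, a transcriptional repressor, had a difference of -1.60 ± 0.41 (adjusted p = 0.0378), and -1.77 without replicate 2. Notch1 kept its call in 11 of 27 alternatives and Hes1 in 15, and leaving out any 1 of the 3 conazole control arrays ended both calls. The kinase gene Pim1 (-1.83), the ubiquitin ligase gene Rnf152 (-1.49), the phosphatase gene Ptprf (-1.51) and Mgll (-1.49), which encodes monoglyceride lipase, were the others. The other Pim1 probe set, also above background, had -0.44. With the median of all probe sets Pim1, Fzd6, Ptprf and Mgll lost their calls. Without replicate 2 the size fell by more than 1.5 times for 4 of the 15, namely Notch1, Trappc9 (a fitted -1.11), Ptprf (-0.70) and Mgll (-0.79). With all arrays all 15 fell under propiconazole, and their phenobarbital changes, -0.20 to 1.46, were all uncalled. For 3 of the 15, Hes1, Pim1 and Rnf152, the conazole controls were called higher than the phenobarbital controls, and for 1, Drg2, lower. The propiconazole change of Fbxw9 was not called without replicate 2 (-1.82, adjusted p = 0.0791).

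**Figure D3:**
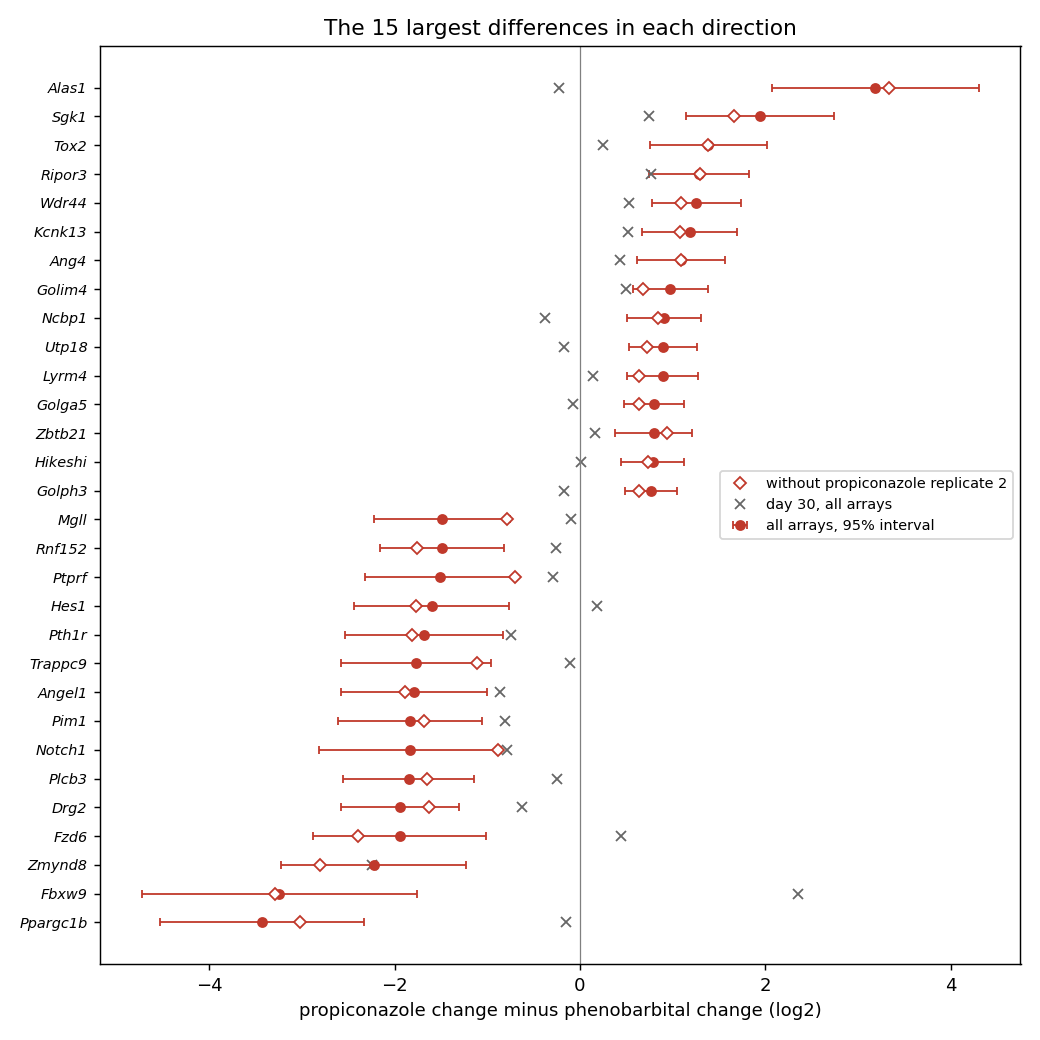
Difference of changes (propiconazole minus phenobarbital, log2) on day 4 for the 15 most positive and 15 most negative genes called with and without replicate 2, chosen by this value, with 95% intervals (filled circles), the value without propiconazole replicate 2 (open diamonds) and the day 30 value (crosses). Values of genes below background in a whole group are fitted values. Alas1 is at 3.19 on day 4 and -0.23 on day 30, and Zmynd8 is at -2.23 and -2.24.

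Of 27 measured PPAR-alpha targets and enzymes of fatty acid oxidation, 9 fell under propiconazole and 0 were called under phenobarbital by limma. The difference was called lower for 3, with a list median of -0.37, against 0.03 over all genes, and 3 of the 27 differences were positive. Without replicate 2, 9 members fell under propiconazole, and the difference was called lower for 1, Acads. Ppara, the receptor that switches on fatty acid oxidation, had levels of 8.57, 7.21 and 9.38 in propiconazole livers, against 10.67, 10.69 and 10.84 in conazole controls. Phenobarbital livers had 9.72, 8.84, 9.52, 10.19 and 10.05, against 10.19, 9.998, 10.30, 10.19 and 10.22 in phenobarbital controls. All propiconazole arrays were below their controls, with replicate 2 lowest. The difference was -1.83 ± 0.41 (adjusted p = 0.0221), and -1.24 (adjusted p = 0.0768) without replicate 2.

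Acads, the short-chain acyl-CoA dehydrogenase, had levels of 9.58, 7.80 and 9.74 in propiconazole livers, against 10.45, 10.22 and 10.07 in conazole controls. Replicate 2 was again the lowest, and the other propiconazole arrays were also below all controls. Its difference was -1.35 ± 0.31 (adjusted p = 0.0242), and -0.72 (adjusted p = 0.00856) without replicate 2, a size smaller by more than 1.5 times. Decr1, which encodes a reductase needed for unsaturated fatty acids, had a difference of -0.64 ± 0.15 (adjusted p = 0.027), and lost its call without replicate 2 (-0.53, adjusted p = 0.0933). The thiolase genes Acaa2 and Acaa1b fell by 0.43 and by 0.60 under propiconazole, with uncalled differences of -0.36 and -0.52.

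Of 23 nuclear receptors and coactivators, 6 fell under propiconazole, and the difference was called lower for 3 (median -0.23). These were Ppara, Ppargc1b and Nr1h3, the oxysterol receptor LXR-alpha, at -0.83 ± 0.20 (adjusted p = 0.0308), and -0.60 (adjusted p = 0.12) without replicate 2. Ppargc1a, the better known relative of Ppargc1b, was below background on every propiconazole array and its difference was not called (adjusted p = 0.0971). Of 19 genes of glucose production and insulin response, 5 fell under propiconazole. The difference was called for 1, Pcx (pyruvate carboxylase, -0.69 ± 0.16, adjusted p = 0.0255), and not without replicate 2 (-0.41, adjusted p = 0.0501). Of 33 subunits of the mitochondrial respiratory chain, 5 fell under propiconazole, against 6.53% of all genes, and 3 without replicate 2, against 4.91% of all genes. By limma 0 of them had a called difference (median -0.15).

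Of 14 measured genes of heat shock proteins and chaperones, 7 rose under propiconazole (7.36% of all genes did), 0 under phenobarbital (0.53%), and the difference was called higher for 2, Hspa4l and Hspa4. The median difference was 0.77, against 0.03 over all genes, and 13 of the 14 were positive. Without replicate 2 the median was 0.80, 7 rose and the difference was called for 0. Hspa4l, a chaperone that assists Hsp70, had levels of 8.14, 9.08 and 8.76 in propiconazole livers, against 7.03, 7.08 and 7.34 in conazole controls. In phenobarbital livers it had 7.82, 7.49, 7.78, 7.40 and 7.55, against 7.29, 7.28, 7.50, 7.46 and 7.36 in phenobarbital controls. The conazole groups were separate and the phenobarbital groups overlapped. Its difference was 1.29 ± 0.31 (adjusted p = 0.0306), and 1.08 (adjusted p = 0.106) without replicate 2. The related Hspa4 had a difference of 0.68 ± 0.17 (adjusted p = 0.0365). Its conazole controls were lower than the phenobarbital controls by a called -0.58 (adjusted p = 0.000679). The mean levels of Hspa4 were 9.495 in propiconazole livers and 9.393 in phenobarbital livers. A second Hspa4 probe set above background had 0.17, and the others were not above background. The inducible Hsp70 gene Hspa1b rose by 2.53 under propiconazole, with a phenobarbital change of 0.69 and an uncalled difference of 1.84 (adjusted p = 0.201), and the co-chaperone gene Dnajb1 rose by 1.46, with an uncalled difference of 1.41 (adjusted p = 0.099).

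The promoter windows of the heat shock genes were read from RefSeq (GRCm38.p6, 250 bases before to 50 after each gene's start) and searched on both strands for the heat shock element GAANNTTCNNGAA. Of the 14 genes 12 had a window, and 4 of their 17 windows (23.5%) held it, against 198 of 32851 windows of all genes (0.603%). These 4 windows were 2 overlapping ones of Hsph1 and the overlapping windows of the neighbours Hspd1 and Hspe1. Hsph1 rose by 1.61 under propiconazole with all arrays (1.62, adjusted p = 0.0996, without replicate 2), with an uncalled difference of 1.07 (adjusted p = 0.432). Hspe1 had changes of 0.28 under propiconazole and 0.02 under phenobarbital, both uncalled. The following windows are shown because they hold the element, printed in capitals, which in Hspe1 occurs as 2 overlapping matches. Hsph1 lies at chr5:149636266-149636565 on the minus strand and Hspe1 at chr1:55087898-55088197 on the plus strand.
Hsph1: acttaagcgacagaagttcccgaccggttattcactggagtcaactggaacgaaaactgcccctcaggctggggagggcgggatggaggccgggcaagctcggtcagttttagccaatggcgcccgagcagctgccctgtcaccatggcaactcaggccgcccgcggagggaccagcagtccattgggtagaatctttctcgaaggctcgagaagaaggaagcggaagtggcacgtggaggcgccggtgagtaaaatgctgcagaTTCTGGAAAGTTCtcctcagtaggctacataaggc
Hspe1: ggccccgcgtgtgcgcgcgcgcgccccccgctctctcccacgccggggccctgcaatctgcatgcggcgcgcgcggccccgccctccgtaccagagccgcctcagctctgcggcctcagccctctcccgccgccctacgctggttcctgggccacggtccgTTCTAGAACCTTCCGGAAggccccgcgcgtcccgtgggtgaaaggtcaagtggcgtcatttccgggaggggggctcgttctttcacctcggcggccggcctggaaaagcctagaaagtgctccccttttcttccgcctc

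Of 24 genes of the unfolded protein and integrated stress response, 6 rose under propiconazole (7.36% of all genes did) and 0 under phenobarbital (0.53% of all genes). For 3 the difference was called higher, against 0.97% of all genes (median 0.16). On values as deposited this median was -0.003, against -0.18 over all genes. Dnajb9, a chaperone of the endoplasmic reticulum, had levels of 11.86, 12.22 and 11.93 in propiconazole livers, against 10.08, 10.28 and 10.81 in conazole controls. All propiconazole arrays were above their controls, and the difference was 1.18 ± 0.30 (adjusted p = 0.0363). Ddit3, the stress-induced transcription factor CHOP, had levels of 7.98, 8.24 and 7.83 in propiconazole livers, against 6.22, 6.12 and 6.61 in conazole controls. Its difference was 1.45 ± 0.38 (adjusted p = 0.0437). Atf3, an immediate early and stress-induced factor, was below background on every conazole control array and was at least 1.36-fold higher in propiconazole livers than in conazole controls, with 2 of 3 propiconazole arrays above background. None of these 3 calls held without replicate 2, where the adjusted p values were 0.108 (Dnajb9), 0.114 (Ddit3) and 0.101 (Atf3). The differences were then 1.07 for Dnajb9 and 1.34 for Ddit3.

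Atf3 also belongs to a list of 24 immediate early genes, which cells switch on within minutes of a stimulus. Of these 1 rose and 4 fell under propiconazole, 0 were called under phenobarbital by limma, and Atf3 was the 1 with a called difference. Without replicate 2 that 1 was instead Nab2, a corepressor of the Egr factors that was below background on every propiconazole array (adjusted p = 0.0239, and 0.0597 with all arrays).

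Of 31 proteasome subunits, 11 rose under propiconazole (7.36% of all genes did) and 0 under phenobarbital (0.53% of all genes). A called difference was found for 1, Psmd12 (0.48 ± 0.12, adjusted p = 0.0411), with a list median of 0.15. Without replicate 2, 8 subunits rose, Psmd12 lost its call (0.33, adjusted p = 0.149) and Psmd8 had one. Of 20 enzymes of cholesterol synthesis, whose pathway in mammals includes the counterpart of the fungal target of triazoles, 3 rose and 2 fell under propiconazole (1 and 1 without replicate 2), and 0 were called under phenobarbital by limma (median difference 0.30). The difference was called for 1, Sqle (squalene epoxidase, 1.43 ± 0.38, adjusted p = 0.0458), whose conazole controls were lower than the phenobarbital controls by a called -0.98. The Sqle difference was 1.07 (adjusted p = 0.177) without replicate 2.

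Among 16 redox enzymes that respond to NRF2, 4 rose and 3 fell under propiconazole (3 and 1 without replicate 2), and the difference was called lower for 1, Osgin1 (-1.16 ± 0.28, adjusted p = 0.0268), and without replicate 2 for 0. Of 17 circadian clock genes 2 had a called lower difference. Hlf, a clock output factor, had levels of 7.17, 7.19 and 7.17 in propiconazole livers, against 8.89, 7.84 and 8.23 in conazole controls, and a difference of -1.14 ± 0.26 (adjusted p = 0.0219), with -1.15 (adjusted p = 0.0387) without replicate 2. Its conazole controls were higher than the phenobarbital controls by a called 0.54 (adjusted p = 0.0265). Cry2, a clock repressor, had a difference of -1.68 ± 0.43 (adjusted p = 0.0387), and -0.97 (adjusted p = 0.132) without replicate 2. Among 19 pericentral hepatocyte genes it was called for 1, Rnf43, a ubiquitin ligase that limits Wnt signalling (adjusted p = 0.0475), and not without replicate 2 (adjusted p = 0.145). Rnf43 was below background on every array of both treated groups and was at least 1.47-fold lower in propiconazole livers than in conazole controls.

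The difference was called by limma for 0 members of each of these lists, with all arrays: 35 cell cycle genes, 28 of fatty acid and triglyceride synthesis, 25 acute phase proteins, 19 of retinoid metabolism, 18 female-biased and 16 male-biased liver genes, 17 of bile acid synthesis and transport, 17 periportal genes, 17 p53 targets and 8 genes that respond to AHR. Of the cell cycle genes, 8 rose under propiconazole (4 without replicate 2) and 2 under phenobarbital. The acute phase list had a median of 0.37 with all arrays and 0.06 without replicate 2, and Saa3, its member with an uncalled difference of 2.38, rose by 2.12 under propiconazole with all arrays. Of the acute phase genes 3 rose and 0 fell under propiconazole with all arrays, whereas 0 rose and 3 fell without replicate 2. The plot of the difference by gene list shows the members of 12 lists.

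**Figure D4:**
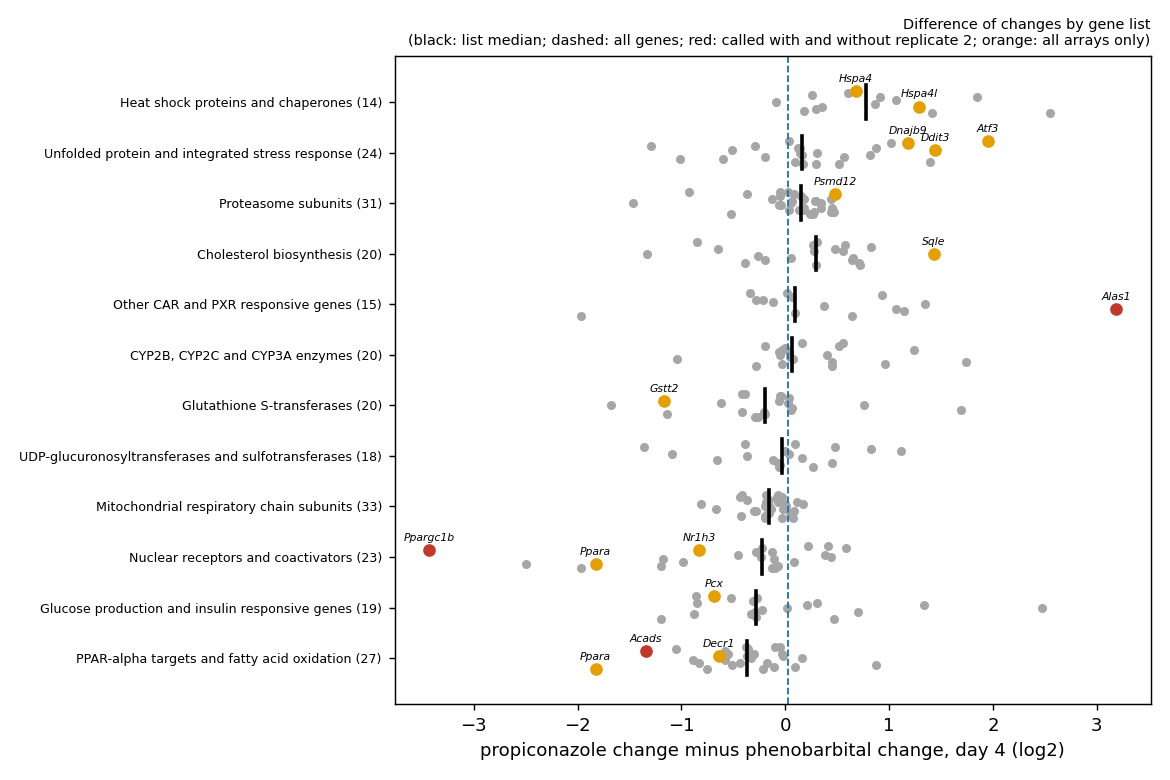
Difference of changes (propiconazole minus phenobarbital, log2) of every measured member of 12 gene lists on day 4, with the number measured in brackets, black bars for list medians and a dashed line for the median of all genes (0.03). The heat shock list has its median at 0.77 and the fatty acid oxidation list at -0.37, and members called with and without replicate 2 (red) are Alas1, Ppargc1b and Acads.

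Of the 325 genes, 5 were themselves called under phenobarbital, where 120 of all 17729 genes (0.677%) were called. These 5 are named here after their values were seen. Tnfsf10, the death ligand TRAIL, rose by 1.03 under phenobarbital (7.57 ± 0.32, against 6.54 ± 0.05 in phenobarbital controls, n = 5 each) and had a propiconazole change of -0.37. Errfi1, an inhibitor of the EGF receptor, fell by 0.79 under phenobarbital and had a propiconazole change of 0.27, and the homeobox gene Hhex fell by 1.10, with a propiconazole change of 0.44. Npm1, the nucleolar protein nucleophosmin, fell by 0.33, with a propiconazole change of 0.20, and Kcng2 was below background in both phenobarbital groups. None of the 5 differences was called without propiconazole replicate 2, where the adjusted p values ran between 0.0514 (Kcng2) and 0.109 (Tnfsf10).

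The controls' gap enters the difference of changes, and the values of both are given side by side. Over all genes the conazole controls were called lower than the phenobarbital controls for 11.4% and higher for 15.5%. Of the genes with a positive difference, the conazole controls were called lower than the phenobarbital controls for 71 (41.3%) and higher for 10. The median gap between treated groups, propiconazole minus phenobarbital, was 0.53, and that between controls was -0.28. Of the genes with a negative difference, the conazole controls were called higher for 43 (28.1%) and lower for 8, and the median gaps were -0.92 between treated groups and 0.27 between controls. The treated groups differed in the direction of the call for 159 of the genes with a positive difference (92.4%) and 142 of those with a negative one (92.8%). Both gaps are parts of the value by which these genes were called. The share of these differences that arose from the controls' experiments was not tested.

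On day 30 the same comparison gave 340 called genes (1.92%), with a positive difference for 0.987% of the genes tested and a negative one for 0.931%. It gave 777 when day 4 propiconazole replicate 2 was left out of the normalization and the shared spread. Of the 325 genes, 230 had the same sign on day 30, 17 were called in the same direction and 2 in the opposite one. Over all 17729 genes 10042 had the same sign on both days, and of the 340 called on day 30, 234 were called in the direction of their day 4 sign and 106 against it. The difference between the days was called for 48 of all genes (0.271%), with the day 4 value higher for 29 (0.164%) and lower for 19 (0.107%). Alas1 had a day 30 difference of -0.23, and its day 4 difference exceeded it by 3.41 (adjusted p = 0.0468). Zmynd8 was at -2.23 on day 4 and -2.24 on day 30. Hlf was at -0.99 on day 30 (adjusted p = 0.0375).

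Markers of other cell types were measured beside these results. In bulk liver fewer cells of a type and less RNA per cell cannot be told apart. The difference was called for 0 members of any of the 9 marker lists by limma. The sum of 9 neutrophil markers was 628 to 6937 in propiconazole livers and 414 to 699 in conazole controls, against 284 to 1608 in phenobarbital livers and 268 to 869 in phenobarbital controls, and its part in the acute phase values was not tested. One of these markers, S100a8, was at least 15.7-fold higher in propiconazole livers than in conazole controls (adjusted p = 0.0175, and 0.129 without replicate 2), and its phenobarbital change was not called (adjusted p = 0.607). Its levels were 11.3, 12.5 and 6.56 in propiconazole livers and 10.4, 9.67, 5.70, 6.13 and 9.90 in phenobarbital livers. It was the 1 marker of the 9 called under propiconazole, and their median propiconazole change was 0.07, and 0 without replicate 2. S100a9 of the same list had 5.01, 8.76 and 4.63 in propiconazole livers, against 6.65, 5.95 and 4.87 in conazole controls. Kupffer cell markers summed to 3473 to 5126 in propiconazole livers and 3706 to 5078 in conazole controls, but to 6154 to 10620 in phenobarbital livers and 5698 to 10410 in phenobarbital controls. They thus moved with the experiment and overlapped between each compound and its controls. Stellate cell and matrix markers had a median difference of -0.42, with 1 of 12 positive, and their part in the negative differences was not tested.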

How the data were processed

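RNA of single livers was hybridised to Affymetrix mouse 430_2 arrays, per the labels' protocols, and the arrays are called biological replicates there. The authors deposited 1 linear intensity per probe set and array, with 21.2% of values below 0. How the probe sets were summarised and scaled, and with which software, is not stated in the labels used. Whether replicates came from separate animals is stated only by the word biological, and p-values measure the spread between these arrays.

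All 38 arrays went through quantile normalization together. Values still below 0 became 0, 16 was added and log2 was taken. The platform annotation names 34958 of 45101 probe sets with 1 gene symbol. These were used, and each gene was represented by its probe set of highest mean. Leaving out 465 constant genes, 17729 genes were tested. Genes with no such probe set were not analysed here. Background was taken from 38 olfactory receptor genes, as the 95th percentile of their mean levels, an intensity of 55.1. Where all arrays of a group were below it, a fold is a bound, written "at least N-fold". It sets the bright group's mean against the dim group's mean after raising each dim array to background. Arrays give no read depth, so the number of arrays and signal over background limit the precision.

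The model was fitted with limma 3.58.1 (R 4.3.3) to the 38 arrays, 1 mean for each group, with an intensity trend (28 residual and 2.91 prior degrees of freedom), and each contrast was adjusted by Benjamini-Hochberg over all genes. Every adjusted p is from this fit unless its sentence names an alternative, which was fitted in the same way on its own. Without propiconazole replicate 2 the remaining arrays were normalized and fitted anew. The main alternatives were the values as deposited, median centring, pseudocounts of 4 and 64, only genes above background, only the 16 arrays, array weights, robust empirical Bayes, the median of all probe sets, a replicate block and leaving out each array. On simulated data with 17729 genes, 84% and 88% of simulated differences of -2 and 2 and 58% and 42% of those of -1 and 1 were recovered (50 genes each), and 16 of 152 calls (10.5%) were false. The simulated noise was normal with the same spread on every array of a gene, and only genes above background were changed. The real propiconazole arrays varied more than the others, so these shares cannot be carried over to the data.

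Genes were named by rule: the 15 largest differences in each direction called with and without propiconazole replicate 2 and above background in some group, without clone, Riken, Gm or _x_at names, the called members of the lists, and the largest rises under both compounds. The comparison, members and lists were chosen with earlier results of these data known. Replicate numbers did not pair the arrays: arrays of the same number correlated at -0.10 to 0.18.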

Additional observations from a re-analysis of the deposited data

Results flagged for a closer look

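Of 122 groups of 5 arrays checked, over 52 named genes and 9 marker sums, 8 held an array far from the other 4; chance alone flags about 1 group in 20. In phenobarbital livers, Tox2 was at a level of 6.35 on replicate 1 (others 6.96 to 7.17) and Nr1h3 at 9.12 on replicate 1 (others 9.40 to 9.48). Replicate 2 of the same group had Pim1 at 7.47 (others 8.18 to 8.38), Rnf152 at 6.69 (others 7.42 to 7.72) and Gadd45b at 9.27 (others 7.24 to 7.68). Cyp2c65 was at 4.19 on phenobarbital control replicate 5, with all others at the floor of 4.

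The summed intensity of cholangiocyte markers was 1138 on phenobarbital replicate 1, against 281 to 395 on the others of its group. The sum of pancreas, gut and adipose markers was 28940 on phenobarbital control replicate 1, against 3474 to 4917 on the others. There the exocrine pancreas genes Cpa1 and Cela2a had levels of 12.37 and 12.99, against at most 6.11 and 7.68 on the other controls. Without that array the difference of changes was called for 187 genes, against 325 with it.

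The difference of changes itself differed between days for 5 named genes, by limma's test of the day 4 value minus the day 30 value. It was 3.41 for Alas1 (adjusted p = 0.0468), 1.29 for Ncbp1 (adjusted p = 0.0367), 0.95 for Golph3 (adjusted p = 0.0267), -5.60 for Fbxw9 (adjusted p = 0.00988) and -0.98 for Decr1 (adjusted p = 0.0396). The genes had been named for their day 4 value, which enters this test.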

How the results depend on the processing

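Shares here are percentages of the genes tested. The difference of changes was called for 1.83% (0.97% positive, 0.863% negative). It was called for 1.02% after median centring (0.186% positive), for 0.0959% in a fit of only the 16 day 4 arrays (0.0733% positive, 0.0226% negative, 17 genes), for 0.0451% with array weights (0.0282% and 0.0169%, 8 genes), and for 0.948% in a fit of 15 day 4 arrays without propiconazole replicate 2 (0.463% and 0.485%), an alternative chosen after seeing the data. With the median of all probe sets 0.558% were positive, and on values as deposited 0.0733% were positive and 2.36% negative. With the replicate number as a replicate block, which does not pair these arrays, 0.609% were called (0.293% and 0.316%, 108 genes). Array weights gave propiconazole replicate 2 a weight of 0.0704 and the other day 4 arrays 0.379 to 1.86. Leaving out 1 array at a time gave 0.632% to 10.4%, with 0.344% to 5.01% positive and 0.271% to 5.39% negative. Propiconazole against conazole controls, called for 13.9%, had 6.46% in the 16 arrays, 0.553% with array weights, 8.26% in the 15 arrays and 8.6% to 21.7% when 1 array was left out. Phenobarbital against its controls, with 0.677%, had 0.18% in the 16 arrays, 4.68% with array weights, where the order of the compounds turned, and 0.367% to 1.39% when 1 array was left out. The day 30 difference, with 1.92%, had 0.79% on values as deposited, 3.93% with array weights, 1.15% with the replicate block and 1.77% to 4.38% when 1 array was left out. Other alternatives kept the numbers of called genes within 1.5 times. Alas1 kept its call in 26 of 27 alternatives, the exception being array weights (adjusted p = 0.148). Over the named genes and alternatives 1007 values kept their side of the threshold, 395 lost their call and 2 reversed: with the median of all probe sets Trappc9 was at 0.0756 and Hspa4 at -0.117. Apart from the alternatives that test fewer genes or arrays, the cause was not tested. Fitted values at the floor of 4 have no order.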
